A study of Mus musculus with 3 samples.

Results

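The lysosomal hydrolases, cathepsins and membrane proteins described here were 42 genes taken by symbol from a count table of 27179 mouse genes. Mouse symbols were found through NCBI gene IDs, and 42 of the 42 genes were present in the table. The table holds 3 RNA-seq libraries, all of 1 group. They were made from sorted stem and progenitor cells of epididymal fat, the visceral fat pad next to the testis, of naive wild-type male mice aged 12 weeks with the strain label C57B6. The cells were taken as live CD45-, CD31- and Ter119- events that carried CD140a, Sca1 and PDPN on their surface. The design names 3 mice but the labels do not tie each library to 1 mouse, so the spread given below is that between 3 libraries and may be technical. There was no second group, and levels are described within the sorted cells.

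Lysosomes are acid compartments in which proteins, glycans, glycosaminoglycans and lipids that arrive by endocytosis or autophagy are cut into small molecules. Soluble hydrolases are carried there mostly by mannose 6-phosphate receptors, the lumen is acidified by the vacuolar proton pump, and heavily glycosylated membrane proteins such as Lamp1 and Lamp2 line the limiting membrane. The transcription factors Tfeb and Tfe3 bind a palindromic promoter element built on the E-box letters CACGTG in many lysosomal genes, and mTORC1 at the lysosome holds both factors in the cytoplasm when nutrients are plentiful. In stromal cells of connective tissue, lysosomal proteases also take part in the turnover of collagen that the cells have taken up.

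Promoter windows of 300 bases, from 250 before to 50 after an annotated start, were read from RefSeq on GRCm38.p6 for the 37 members that the table of windows holds. Asah1, Ctsb, Ctsh, Galns and Npc1 were not in that table. The letters CACGTG, a palindrome that reads the same on both strands, lay in a window of 13 of the 37 members (35.1%), against 8.09% of 27025 genes with a window and 12.4% of the 7548 detected genes among them. The longer palindrome TCACGTGA, which contains CACGTG, lay in 5 of 37 members (Cln3, Ctsa, Ctsd, Gla and Mcoln1), against 1.12% of all genes and 2.53% of detected genes. The same 8 letters preceded by G and followed by C, the full CLEAR palindrome, lay in the window of Cln3 alone among the members, against 0.37% of all genes and 0.914% of detected genes. Lamp1 had 4 copies of CACGTG, the most of the 37 members, within 58 bases before its start. A match describes these letters only and was not tested as a binding site. The element is known from lysosomal genes, the class the members were picked from, so their higher share was not tested.

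The stretches of the 5 members with the longer palindrome and of Lamp1 are printed because they hold more than 1 copy of the core. Each runs 5′ to 3′ on the gene's strand, with CACGTG in capitals. Lamp1 lies on the plus strand at chr8:13159080-13159171, Mcoln1 on the plus strand at chr8:3500428-3500499, Ctsa on the plus strand at chr2:164833741-164833792, Cln3 on the minus strand at chr7:126583332-126583405, Ctsd on the minus strand at chr7:142387900-142388077 and Gla on the minus strand at chrX:134601174-134601252. The windows of Cln3 and Ctsa, and the Ctsl window that holds a copy, lie inside the annotated gene and belong to starts downstream of the outermost one.
Lamp1: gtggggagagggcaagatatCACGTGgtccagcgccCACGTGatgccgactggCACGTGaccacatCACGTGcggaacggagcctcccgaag
Cln3: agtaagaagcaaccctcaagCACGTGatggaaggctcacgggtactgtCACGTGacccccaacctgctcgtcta
Mcoln1: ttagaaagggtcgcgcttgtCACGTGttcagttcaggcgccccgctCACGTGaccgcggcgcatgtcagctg
Ctsa: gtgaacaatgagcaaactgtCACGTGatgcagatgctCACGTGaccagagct
Gla: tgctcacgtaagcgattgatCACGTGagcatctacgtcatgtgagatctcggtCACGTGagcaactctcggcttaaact
Ctsd: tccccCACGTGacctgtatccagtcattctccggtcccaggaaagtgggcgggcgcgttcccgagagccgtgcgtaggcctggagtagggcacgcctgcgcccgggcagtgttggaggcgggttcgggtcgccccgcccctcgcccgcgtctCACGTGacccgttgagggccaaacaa

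**Figure D1:**
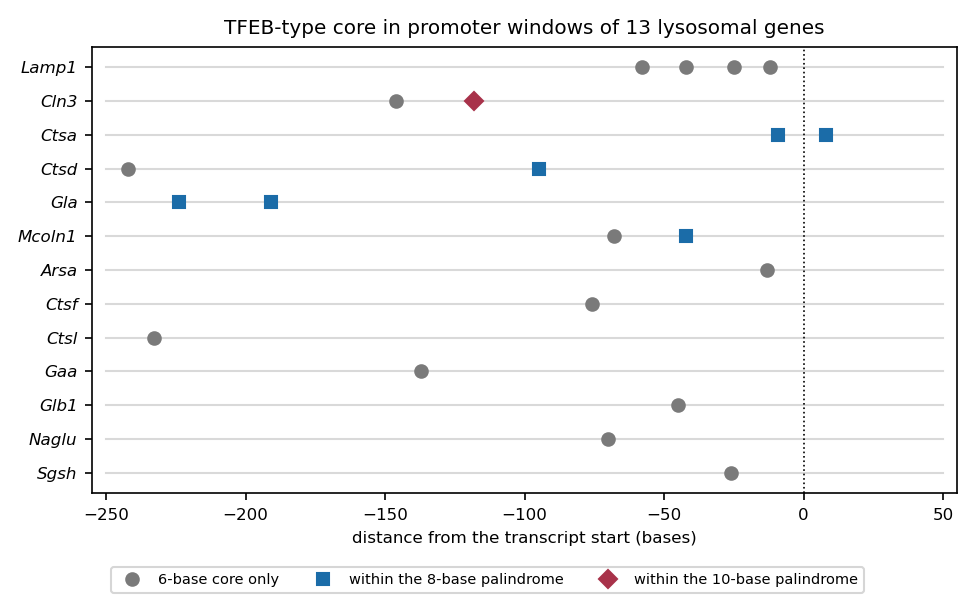
Position of each CACGTG copy in the promoter windows of the 13 members that hold it, as the distance in bases from the annotated start (x axis) for each gene (y axis). Grey circles are the core alone, blue squares the copies within TCACGTGA and the red diamond the copy within the 10-base palindrome. The 4 copies of Lamp1 lie between 58 and 12 bases before the start, and Cln3 holds the only 10-base match.

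The 3 libraries held 32813373, 25060096 and 27275888 counts, and 7178 genes had no count in any of them. Of the genes of the sorted surface proteins, Pdgfra (CD140a), Ly6a (Sca1) and Pdpn were all above 97 CPM in every library (near-identical paralogs may share reads with Ly6a), where CPM stands for counts scaled to a common library size. Pecam1 (CD31), which the sort excludes, had 1, 1 and 2 counts, while Ptprc (CD45), also excluded, had 5.42, 15.8 and 7.68 CPM. Macrophages, which are rich in lysosomes, were represented by 15 markers. Of these, 3 were detected, Cx3cr1 was the highest with a mean of 23.2 CPM, C1qb and Cd163 had no count, and the summed level lay between 31.5 and 79.6 CPM. Of 7 osteoclast markers none was detected and their sum was 0.143 to 10.3 CPM. No marker of lymphocytes, granulocytes and mast cells, endothelium or erythroid cells was detected, meaning 1 CPM or more in every library. Some had counts in part of the libraries: Cd3d had 183, 0 and 205 counts, Siglecf 0, 205 and 0, and Hbb-bs 66, 0 and 0. The sums were 0.277 to 7.64 CPM for lymphocytes and 0.0714 to 9.31 CPM for granulocytes and mast cells. They were 0.158 to 0.393 CPM for endothelium and 0.0357 to 3.21 CPM for erythroid cells. Detected were 1 of 9 mature adipocyte markers (Fabp4) and 1 of 7 mesothelial markers (Nkain4).

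Most of the 42 lysosomal genes were expressed in the sorted progenitors, and the protease Ctsl and the membrane protein Lamp2 had the most counts. Per kilobase of exon Ctsl was first and Lamp2 ranked 4. A gene was taken as detected where each of the 3 libraries had at least 1 CPM, and 39 of 42 members (92.9%) passed, against 35% of all 27179 genes and 43.7% of 20983 protein-coding genes. The 3 members that did not pass were the cathepsin Ctss, the galactosidase Gla and the sulfatase Galns. In every library 31 members had at least 10 CPM (23.4% of all genes did), 12 had at least 100 CPM (5.07%) and 1, Ctsl, had at least 1000 CPM (0.327%). In bulk RNA, fewer cells with a transcript and less of it per cell cannot be told apart.

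Together the 42 genes took 0.704%, 0.726% and 0.706% of the counts of the 3 libraries. Their share of the total thus differed little between libraries, and Ctsl, Lamp2 and Ctsb alone made up 50.7%, 52.4% and 46.6% of it. The median over all 42 members of the mean level per length was 16.4 CPM per kilobase of exon, against 6.55 for the 9202 detected genes with a length, and 29 members lay above that median. On the log2 scale, with a pseudocount of 0.5, the median member was higher than the median detected gene by 1.31 ± 0.24 per kilobase and by 1.13 ± 0.12 in CPM (SD over 3 libraries). The members were chosen for their function with results of these libraries known, so these differences were not tested.

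**Figure D2:**
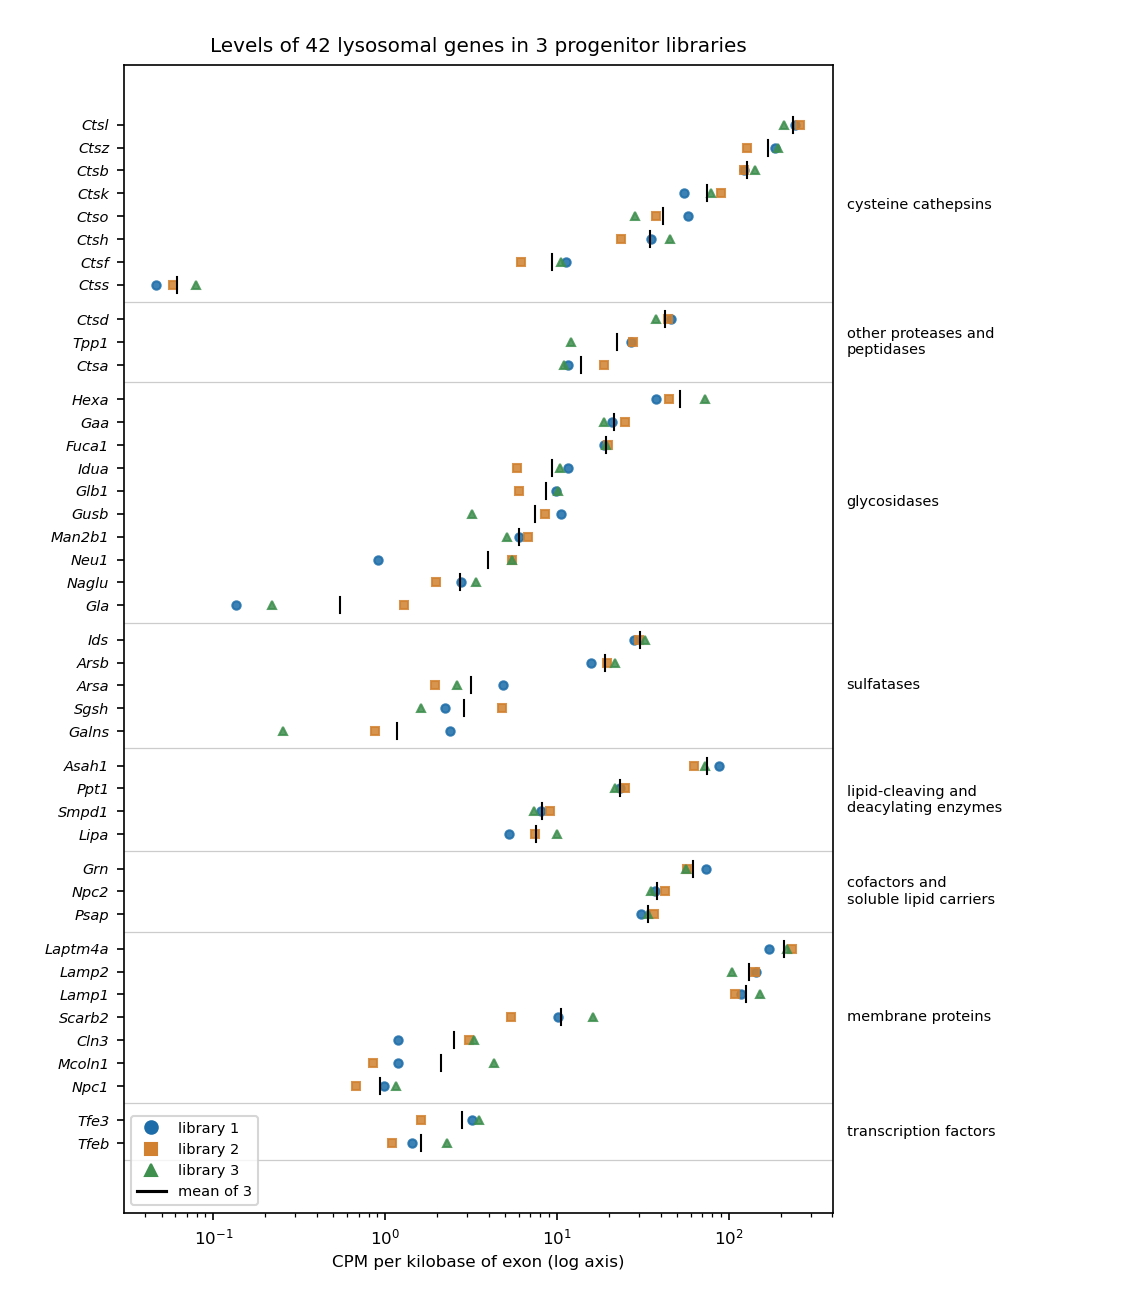
Level of each of the 42 members in CPM per kilobase of exon (x axis, log scale), grouped by role, with a symbol for each of the 3 libraries and a bar for their mean. The members run from Ctss at 0.0612 to Ctsl at 237 CPM per kilobase, and the symbols of Gla, Galns, Neu1 and Mcoln1 lie widest apart.

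Cysteine cathepsins, the papain-like proteases of the lysosome, were the largest part of the members' RNA. These 8 genes held 43.6%, 42.6% and 43.7% of the member counts, and 7 of the 8 were detected. Ctsl, an endopeptidase encoded at chr13:64361890-64370772 on the minus strand, had 1570, 1684 and 1353 CPM, or 237 ± 25.9 CPM per kilobase (SD, n = 3), the highest of the 42 per kilobase of exon. Ctsz, a carboxypeptidase, followed with 266, 185 and 280 CPM, or 169 ± 35.7 CPM per kilobase. Ctsb, which works as both an endopeptidase and an exopeptidase, had 741, 737 and 853 CPM, or 128 ± 10.9 CPM per kilobase. The libraries were close for Ctsl and Ctsb, with the highest library at 1.24 and 1.16 times the lowest, while library 2 was the low one for Ctsz.

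The remaining cysteine cathepsins were lower per length. Ctsk, the collagen-cutting cathepsin best known from osteoclasts, had 82.9, 135 and 118 CPM, or 74.1 ± 17.7 CPM per kilobase, ranking 8 of 42. Ctso, a cathepsin with few known substrates, had 297, 193 and 146 CPM, or 41.4 ± 15.0 CPM per kilobase. The aminopeptidase Ctsh had 159, 106 and 203 CPM, or 34.7 ± 10.8 CPM per kilobase. Per kilobase of principal transcript Ctsh had 96.5 ± 30 CPM, above the 74.1 of Ctsk and the 61.1 of Ctso, so the order of these 3 depends on the length used. Library 1 was the highest for Ctso and library 3 the highest for Ctsh. Ctsf, the lowest of the detected cysteine cathepsins, had 56.5, 31.1 and 53.6 CPM, or 9.33 ± 2.76 CPM per kilobase.

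Ctss, the cathepsin that trims the invariant chain of MHC class II in antigen-presenting cells, was near 0. It had 2, 2 and 3 counts, at or below the 3 counts that a count of 0 allows in each library (0.0945, 0.119 and 0.107 CPM). Summed over the libraries, Ctsl had 130243 counts and Ctss 7, a ratio per kilobase of exon of 3894 (95% exact interval 1890 to 9685, counting error only). Of the 15 markers of the macrophage list, 3 were detected in the same libraries, while C1qb and Cd163 were at 0. Counts of 2, 2 and 3 do not order the libraries, and the part of the macrophage RNA in them was not tested.

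The other proteases were detected in every library, with Ctsd above the rest per length. Ctsd, the main aspartic protease of lysosomes, had 108, 103 and 88.2 CPM, or 42.5 ± 4.4 CPM per kilobase. Tpp1, which removes tripeptides from the ends of proteins, had 140, 144 and 62.7 CPM, with library 3 well below the other libraries. Ctsa, a carboxypeptidase that also holds the sialidase Neu1 in a stable complex, had 54.8, 88.5 and 51.9 CPM, with library 2 the high one.

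Among the 10 glycosidases, which take sugars off glycoproteins, glycolipids and glycosaminoglycans, Hexa was the highest and Gla the lowest per length. Hexa, the alpha subunit of the hexosaminidase that degrades the ganglioside GM2, had 75.2, 89.9 and 144 CPM, or 51.7 ± 18.3 CPM per kilobase. Gaa, the acid glucosidase that breaks down glycogen, had 100, 119 and 89.3 CPM, or 21.5 ± 3.13 CPM per kilobase. Fuca1, which removes fucose, had 61.6, 64.5 and 62.8 CPM. With a coefficient of variation (SD over mean) of 2.34%, Fuca1 was the steadiest of the 42.

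In the middle of the glycosidases stood enzymes of glycosaminoglycan and glycoprotein breakdown. Idua, which cuts iduronic acid from dermatan and heparan sulfate, averaged 9.29 ± 3.01 CPM per kilobase. The beta-galactosidase Glb1 averaged 8.62 ± 2.3 and the mannosidase Man2b1 5.98 ± 0.805 CPM per kilobase. These levels lay around the 6.55 CPM per kilobase of the median detected gene. Gusb, the beta-glucuronidase, had 48.4, 38.9 and 14.6 CPM, with library 3 the low one. Naglu, an enzyme of heparan sulfate breakdown, was detected at a low level of 7.34, 5.27 and 9 CPM.

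Neu1 and Gla differed most between libraries among the glycosidases. Neu1, the lysosomal sialidase, had 3.40 CPM in library 1 and 20.4 and 20.3 CPM in libraries 2 and 3. Gla, the alpha-galactosidase of globotriaosylceramide breakdown, had 14, 106 and 20 counts, or 0.441, 4.20 and 0.714 CPM, and failed detection in libraries 1 and 3. Without library 2 the mean of Gla was 0.578 CPM, against 1.79 CPM over the 3 libraries. The summed macrophage markers had 31.5, 79.6 and 38.3 CPM and the summed mature adipocyte markers 30.3, 111 and 80.4 CPM. Both sums were lowest in library 1 and highest in library 2, but each came mostly from few genes. Of 15 macrophage markers 3 were detected, with Cx3cr1 at 19.4, 35.5 and 14.8 CPM. Of 9 adipocyte markers only Fabp4 was, at 18.9, 98.6 and 72.9 CPM. C1qb, Cd163, Adipoq and Cidec had no count. The part of macrophage or adipocyte RNA in the levels of Gla and Neu1 was not tested.

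The sulfatases formed an upper pair and a lower group per length. Ids, which takes sulfate off iduronic acid in dermatan and heparan sulfate, had 143, 153 and 166 CPM, or 30.2 ± 2.25 CPM per kilobase. Arsb, which works on dermatan and chondroitin sulfate, had 95.3, 118 and 130 CPM, or 19.0 ± 2.94 CPM per kilobase. Arsa, the sulfatase of the myelin lipid sulfatide, had 17.9, 7.13 and 9.61 CPM, and Sgsh, an enzyme of heparan sulfate breakdown, had 9.8, 21 and 7.14 CPM. Both were under the level per kilobase of Ids and Arsb in every library. Galns, which acts on keratan sulfate, had 201, 58 and 19 counts, or 6.33, 2.3 and 0.679 CPM, and missed detection in library 3. Leaving out library 1 took the mean of Galns to 1.49 CPM, against 3.10 CPM over the 3 libraries.

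All 4 enzymes that cleave lipids or remove fatty acids were detected. Asah1, the acid ceramidase, was the highest of them with 297, 213 and 245 CPM, or 74.2 ± 12.5 CPM per kilobase. Ppt1, which removes palmitate from proteins, had 85.3, 91.4 and 79.3 CPM, or 23.2 ± 1.66 CPM per kilobase. Smpd1, the acid sphingomyelinase that makes ceramide, had 27.0, 30.5 and 24.5 CPM, or 8.19 ± 0.895 CPM per kilobase. Asah1 was thus above Smpd1 per length in each of the 3 libraries. Lipa, the acid lipase that releases cholesterol and fatty acids from lipoprotein lipids, had 35.7, 50.6 and 67.9 CPM, or 7.58 ± 2.38 CPM per kilobase.

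The 3 cofactors and carriers without a catalytic site of their own lay above the median detected gene per length. Grn, the precursor of the granulins, had 255, 199 and 194 CPM, or 62.1 ± 9.67 CPM per kilobase. Npc2, which hands cholesterol from the lumen to the membrane protein Npc1, had 202, 230 and 190 CPM. Psap, the precursor of the saposins that present lipids to hydrolases, had 84.2, 100 and 92.2 CPM, or 33.6 ± 2.97 CPM per kilobase. The coefficient of variation was below 25% for each of the 3.

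The membrane proteins held 28.6%, 29.5% and 28.5% of the member counts and had 3 high and 4 lower genes. Lamp2, a structural glycoprotein of the lysosomal membrane that also serves chaperone-mediated autophagy, had 1380, 1356 and 996 CPM, or 130 ± 22.5 CPM per kilobase. Lamp1, its paralog, had 312, 293 and 405 CPM, or 126 ± 22.5 CPM per kilobase. Laptm4a, a small multi-pass protein of late endosomes and lysosomes, had 302, 413 and 389 CPM, or 208 ± 33.2 CPM per kilobase, the second level of the 42. Per kilobase of exon, Lamp2, Ctsb and Lamp1 lay within an SD of each other and their order is not resolved.

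The lower membrane proteins varied more. Scarb2, which carries glucocerebrosidase to the lysosome, had 63.7, 34.0 and 102 CPM. Cln3, a membrane protein mutated in a juvenile form of neuronal ceroid lipofuscinosis in people, had 6.84, 17.7 and 19.1 CPM. Mcoln1, a calcium and iron channel of the lysosome, had 8.91, 6.42 and 32.3 CPM. Library 3 stood alone for Mcoln1, whose mean was 7.67 CPM without that library, against 15.9 CPM over the 3 libraries. Npc1, which exports cholesterol from the lysosome, had 11.1, 7.61 and 13 CPM, and with 0.935 ± 0.243 CPM per kilobase it was the lowest of the detected members per length.

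Tfeb and Tfe3, known to bind a promoter element built on CACGTG, were detected at low levels, and their binding to the stretches printed above was not tested. Tfe3 had 29.8, 15.0 and 32.5 CPM, or 2.78 ± 1.01 CPM per kilobase, and Tfeb had 8.19, 6.26 and 13 CPM, or 1.62 ± 0.616 CPM per kilobase. Library 2 was the lowest for both. Both were under the median detected gene per kilobase of exon. Per kilobase of principal transcript Tfe3 had 7.86 ± 2.87 and Tfeb 3.99 ± 1.52 CPM, and no median of detected genes was taken on that scale.

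The order of the members depended on which exons counted as length. The union of all annotated exons, used above, is 9552 bases for Lamp2 and 2675 bases for Lamp1, while the principal transcripts are 3604 and 2229 bases. Here the principal transcript is the longest of those tagged as principal in the annotation. For Ctsl, Lamp1 and Lamp2 it has the length of the longest transcript. Per kilobase of principal transcript, a scale added after the data were seen, Lamp2 was first with 345 ± 59.7 and Ctsl second with 249 ± 27.3 CPM per kilobase. The first 10 members shared 9 genes between the scales, and over the 42 members the ranks correlated with a Spearman coefficient of 0.98. By the exon union, 9 members lay above the 90th percentile of detected genes, namely Ctsl, Laptm4a, Ctsz, Lamp2, Ctsb, Lamp1, Asah1, Ctsk and Grn.

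Paralogs or partners were compared in 8 pairs, of which 7 are given, within each library, as differences of log2(CPM per kilobase of exon + 0.5). The exact two-sided sign-flip permutation test over 3 libraries cannot give a p below 0.25, so no pair could pass 0.05, and p-values were adjusted over the 8 pairs. Npc2 was above Npc1 in 3 of 3 libraries, with 37.1, 42.2 and 35 CPM per kilobase for Npc2 and 0.980, 0.672 and 1.15 CPM per kilobase for Npc1. The log2 difference was 4.76 ± 0.39 (SD; exact p = 0.25, adjusted 0.333), the widest after Ctsl minus Ctss. That difference was 8.72 ± 0.19 with the pseudocount of 0.5, 10.52 with 0.1 and 7.8 with 1, because Ctss lies near 0, so its size and SD rest on the pseudocount and the ratio of counts given above is the better measure. The soluble and the membrane protein of the same cholesterol route thus stood far apart in RNA level.

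Smaller differences had the same sign in 3 of 3 libraries in another 4 pairs, each with exact p = 0.25 and adjusted p = 0.333. Ctsa exceeded its complex partner Neu1 by 3.10, 1.69 and 0.95 on the log2 scale, the widest gap being in library 1, where Neu1 was low. Ctsb exceeded Ctsk by 0.81 ± 0.36, and Psap minus Grn was -0.87 ± 0.33. Tfe3 exceeded Tfeb by 0.62 ± 0.28 with the exon union and by 0.88 with the principal transcript. With the longest transcript the mean was 0.04 and the libraries did not share a sign, so that gap rests on the length used.

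Lamp1 and Lamp2 had no constant order per kilobase of exon. The difference of Lamp1 minus Lamp2 was -0.31, -0.37 and 0.54, a mean of -0.05 ± 0.51 (exact sign-flip permutation test, p = 1.0). With the principal transcript as length it was -1.19, with Lamp1 lower (exact p = 0.25). Library 3 had the opposite sign to libraries 1 and 2.

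**Figure D3:**
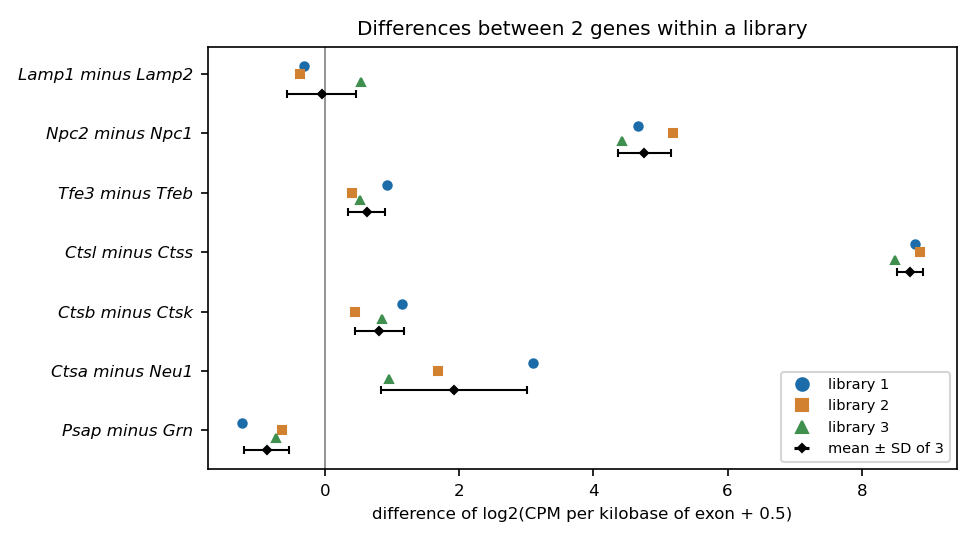
Difference of log2(CPM per kilobase of exon + 0.5) between the genes of 7 pairs (x axis), with a symbol for each library and a black diamond with bars for the mean ± SD of 3 libraries. Npc2 minus Npc1 (4.76) and Ctsl minus Ctss (8.72, a size set by the pseudocount) lie far from 0, while the libraries of Lamp1 minus Lamp2 lie on both sides of it.

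The spread between libraries was moderate for most lysosomal genes. The median coefficient of variation was 25.9% over the 39 detected members, against 33.2% over the 9515 detected genes, which have lower levels (a median of 85.3 CPM for the detected members, against 30.7 CPM). It was below 25% for 19 members, against 34.8% of detected genes, and above 50% for 5 members, against 27.8%. These 5 were Mcoln1 (89.8%), Neu1 (66.6%), Sgsh (58.3%), Gusb (51.3%) and Scarb2 (51.2%). Of the detected members, 9 were highest in library 1, 14 in library 2 and 16 in library 3, against 32.7%, 33.2% and 34.1% of detected genes.

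The test across all genes called no member, and with 1 library against 2 of the same group it had little to estimate the spread from. With edgeR's quasi-likelihood test of each library against the other 2, 0 of 41 members and 0% of 13289 genes were called at an adjusted p under 0.05 in any of the 3 comparisons, and an unadjusted p under 0.05 was found for 1 member in each. By the same edgeR test these were Ctso in library 1, with a log2 fold change of 0.81 (adjusted p = 0.99), Scarb2 in library 2, with -1.29 (adjusted p = 0.98), and Tpp1 in library 3, with -1.18 (adjusted p = 0.89). Over all genes, 3.85%, 4.96% and 5.07% had an unadjusted p under 0.05. DESeq2's Wald test called 1.12%, 1.66% and 1.61% of genes and 0 members, of which 2, 1 and 2 had an unadjusted p under 0.05, with Tpp1 in library 3 at the lowest adjusted p of 0.19. In simulated libraries of this size the edgeR test found 47% of changes of 4-fold and 92.5% of changes of 16-fold, so differences such as those between the highest and lowest library of Mcoln1 (5.02 times) or Neu1 (5.99 times) could be missed.

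**Figure D4:**
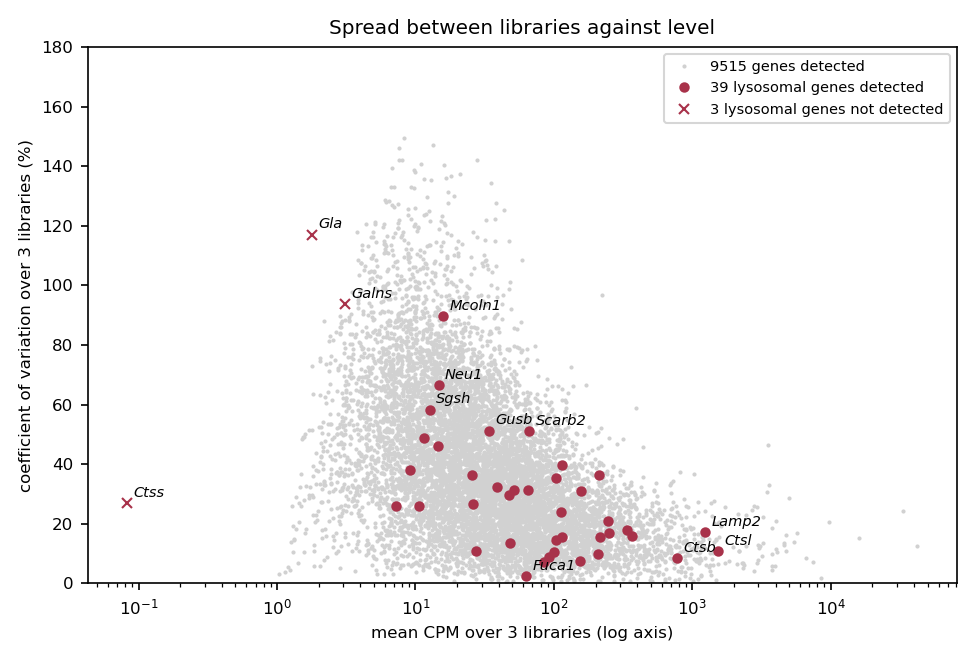
Coefficient of variation over 3 libraries in percent (y axis) against the mean level in CPM (x axis, log scale) for detected genes in grey and for the lysosomal genes in red, with crosses for the 3 members that were not detected. Ctsl, Lamp2 and Ctsb lie at the right with values of 10.9%, 17.3% and 8.53%, and Mcoln1 is the highest of the detected members at 89.8%.

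Some members share exon bases with a neighbour, and the strand setting of the counting is not given in the sources used here. For 8 of the 42 members the shared bases were over 10% of the exons. Ctsd shares 34.4% with Gm49369 on the same strand, Arsb 32.3% with Gm26527 and Ctsl 26.8% with Gm47123, both on the opposite strand, and no counts were matched to these 3 neighbours. Ctsl also shares 6.1% of its exons with Gm49230, a processed pseudogene on the same strand. Of opposite-strand neighbours with counts, Card14, which shares 21.6% of Sgsh, averaged 0.0224 CPM, and Fdft1, which shares 12.8% of Ctsb, averaged 16.5 CPM. Rmc1, which shares 4.5% of the exons of Npc1, averaged 13.6 CPM, more counts than the 10.6 CPM of Npc1 itself. In the search by sequence, no processed pseudogene matched the coding sequence of any of the 42 members at 90% identity over 50% of its length.

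The rest of the lysosomal system was detected to differing extents. Of 31 other lysosomal hydrolases 22 were detected, with a median of 6.07 CPM per kilobase over the list. The highest were the carboxypeptidase Scpep1 (89.8 CPM per kilobase), the peptidase Cpq (77.9) and the folate-trimming hydrolase Ggh (74.6), and the lymphocyte cathepsin Ctsw had no count. Of 24 other lysosomal membrane proteins 17 were detected, led by the tetraspanin Cd63 at 238 CPM per kilobase, then Laptm4b (41.6), Tmem106b (39.5) and the cobalamin exporter Lmbrd1 (18.8). These lists and those that follow were picked by function like the 42 members. Their shares stand beside 35% of all genes and 43.7% of protein-coding genes.

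Acidification, sorting and control genes were also present. Of 25 subunits of the vacuolar proton pump 16 were detected, with Atp6v1f (329 CPM per kilobase), Atp6v0e (296), Atp6v0b (128) and Atp6ap2 (107) the highest and the tissue-restricted subunits Atp6v0a4 and Atp6v1c2 at 0. Of 13 genes that sort enzymes to the lysosome 10 were detected, with the mannose 6-phosphate receptor M6pr highest at 21.1 CPM per kilobase. Of 20 genes that control Tfeb through mTORC1 or calcineurin, or belong to its family, 18 were detected. The Ragulator subunits Lamtor5 (271 CPM per kilobase), Lamtor2 (138) and Lamtor4 (71.6) led that list, followed by Fnip1 (28.0), while the family member Tfec had no count.

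Cstb and Cst3, inhibitors of cysteine cathepsins, were above every one of the 42 members in mean level per kilobase of exon, but not in CPM. In mean CPM, Ctsl (1536) and Lamp2 (1244) were above Cst3 (1003) and Cstb (828), so the order rests on the length. Cstb, which acts in the cytosol, had 1373 ± 74.8 CPM per kilobase and Cst3, the secreted cystatin C, 793 ± 7.66, against the 237 ± 25.9 CPM per kilobase of Ctsl. Serpinb6a, a cytosolic serpin, had 95.8 ± 16.6. These were the 3 of 8 inhibitors that were detected, and the stefins Stfa1 and Stfa3 had no count. All 22 macroautophagy genes were detected, with Map1lc3a (72.3 CPM per kilobase), the cargo receptor Sqstm1 (54.0), Atg3 (31.5) and Map1lc3b (28.2) the highest.

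**Figure D5:**
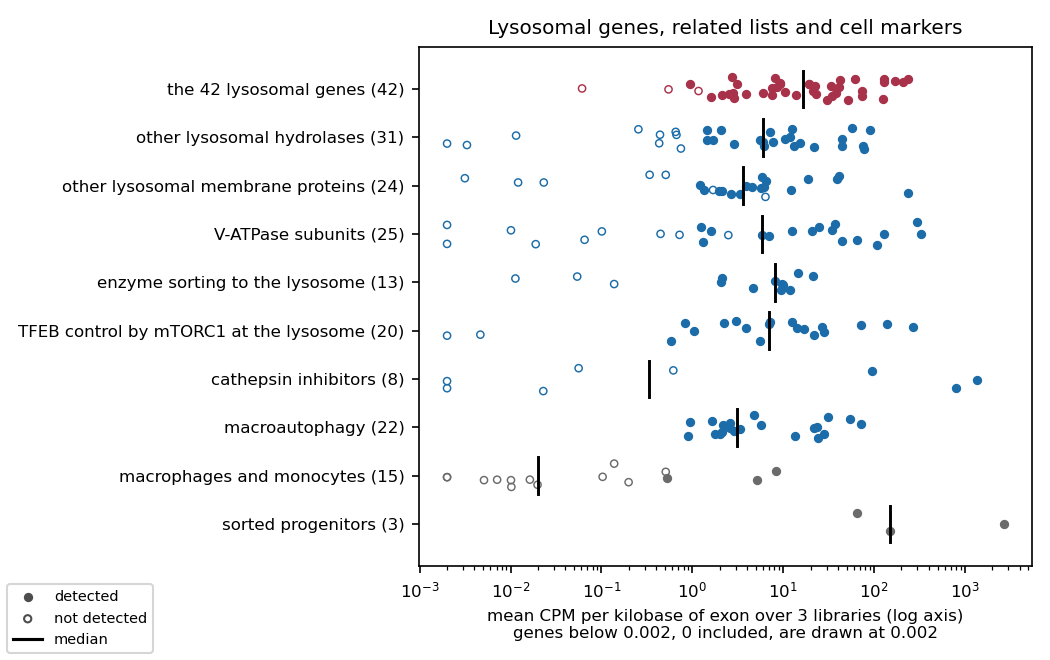
Mean level over 3 libraries in CPM per kilobase of exon (x axis, log scale) of each gene in the lysosomal set, in 7 related lists and in 2 marker lists (y axis, number of genes in parentheses). Filled circles are detected genes, open circles are not, and vertical bars are list medians. The median of the 42 members is 16.4 and that of the 15 macrophage and monocyte markers 0.0198 CPM per kilobase.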

How the data were processed

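RNA was measured in 3 libraries of 1 group, made from sorted cells with the SMARTer Ultra Low Input V4 kit, per the labels' protocols. The authors deposited whole-number counts per NCBI gene ID, not normalized. CASAVA 1.8.2, STAR 2.3.0 and mm10 are named per the submitters' processing notes. For the counting tool, its annotation and its strand setting, nothing is given in the sources used here. Symbols and coordinates came from RefSeq (GRCm38.p6), in which 25275 of 27179 IDs matched, and exon lengths from GENCODE vM21.

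From the deposited counts, CPM used TMM library sizes from edgeR 4.0.16 (R 4.3.3). Tests across genes used edgeR's quasi-likelihood test of each library against the other 2 (genes with 10 counts or more in at least 1 library), in which the single library borrows its variance from the other libraries, with Benjamini-Hochberg adjustment at 0.05. DESeq2 1.42.0 was an alternative. Spread in the simulated data followed a gene's level only, so genes that vary more, or are lower in a library, were not covered. The edgeR test was tested on such data with 200 changed genes at 10 CPM or more, all raised in library 1. It then also called 16 and 17 unchanged genes at 4-fold and 16-fold, and 2 genes with none changed. Intervals and the limit of 3 counts cover counting error only, and the labels mention no molecular identifiers. Pseudogenes were sought with BLAST 2.17.0. Python 3.11.15, numpy 2.4.6, scipy 1.17.1, pandas 2.3.3 and matplotlib 3.10.9 were used.

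Members, lists, pairs and alternatives were chosen with earlier results of these data known. Any of the 42 members could be named, and of each related list the 4 detected genes highest per kilobase and those at 0. Of each marker list the highest gene, those at 0 and the sort genes could be named, together with genes that overlap a member. For Atp6v0a3 and Hbb-bt no ID was matched by symbol, and Tmem55b was found as Pip4p1. A comparison and a level that this rule would give are not reported here.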

Additional observations from a re-analysis of the deposited data

How the results depend on the processing

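Of the alternatives, 92 were labelled as keeping their result, 11 as moving it and 2 as reversing it. For a pair the label compares only the sign of the mean, as no p could fall below 0.25. It does not measure size. Lamp1 minus Lamp2 kept the label at -1.88 in plain CPM against -0.05, and the number of detected members kept it at 28 (20 CPM) against 39. The reversals were of a pair near 0. Leaving out each library in turn put Lamp1 minus Lamp2 between -0.34 and 0.11 on the log2 scale, with 0.08 without library 1 and 0.11 without library 2. With another length the size of a pair's difference could change much: Lamp1 minus Lamp2 was -1.19 with the longest or principal transcript and -1.88 in plain CPM, and Tfe3 minus Tfeb was 0.04 with the longest transcript. The other 6 pairs given kept the sign of their mean under every pseudocount, length and left-out library tried. Within Tfe3 minus Tfeb the libraries did not share a sign with the longest transcript. The cause of the reversals was not tested.

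With genes of any count in place of detected genes, the median member was higher by 3.26 per kilobase and by 4.49 in CPM, since that adds genes of low level. Leaving out a library put the difference in CPM between 1.17 and 1.29. The number of detected members was 40, 38 and 28 at 0.5, 5 and 20 CPM.

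DESeq2 called 126, 199 and 197 genes in libraries 1, 2 and 3. Without a filter beyond 1 count edgeR called 16, 16 and 36 genes, and with 10 counts in every library it called 8 in library 2 and 2 in library 3. No member was among the calls in any of these settings. Leaving out a library for these tests leaves no residual degrees of freedom, so it was not run. No paired analysis was possible because there is only 1 group. Counts were few for Ctss (2, 2 and 3), Gla (14 and 20 in libraries 1 and 3) and Galns (19 in library 3), and no run at another depth was made.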
